A study of Saccharomyces cerevisiae with 12 samples.

Results

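The comparison set 3 arrays labelled hsp33 deletion against 3 arrays labelled hsp32 deletion, which are 6 of the 12 arrays of a study of the budding yeast Saccharomyces cerevisiae. All 6 were taken by their label alone. Yeast of the hsp33 deletion and of the hsp32 deletion were grown alike in synthetic complete medium and collected at the diauxic shift, and 1 gene of the DJ-1 superfamily is labelled as deleted in each. The other 6 arrays come from an hsp31 deletion and from wild type, grown in the same way. They are used below for levels. They also entered the normalization, the choice of genes tested and the spread that sets each error and p-value. The labels give no parent strain, mating type, marker gene or number of clones, and do not say whether replicates came from separate cultures, so that p-values measure the spread between these arrays, which may be technical. Each array measured total RNA in 1 colour (Cy3), and levels are given as log2 normalized signal, on which 1 unit is 1 doubling of brightness. Of 6252 gene probes, 5863 stood above the negative controls on all arrays of at least 1 group and were tested with limma.

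HSP33, HSP32 and SNO4 lie near chromosome ends, are closely alike in sequence and encode DJ-1 superfamily proteins. HSP31 is a more distant relative, whose product is a methylglyoxalase and chaperone. The diauxic shift is the point at which yeast has used up glucose: ribosome production is turned down, and genes for respiration, gluconeogenesis, storage carbohydrates and stress protection are turned on. Haploid yeast comes in 2 mating types, a and alpha, which differ in the genes at the MAT locus and in the pheromones and receptors under their control.

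At an adjusted p of 0.05 (limma, Benjamini-Hochberg), 561 genes were higher and 536 lower in the hsp33 deletion than in the hsp32 deletion, which is 18.7% of the genes tested. The typical call was small, with a median size of 1.38-fold, and 53 genes differed by at least 2-fold, 29 of them higher and 24 lower. The largest differences fell on genes of mating type and on genes used as markers in strain construction. A second, smaller and broader pattern ran through metabolism: genes of stress protection, storage carbohydrates and growth on ethanol and acetate were higher in the hsp33 deletion, and genes of ribosome production and amino acid synthesis were lower. The size of the count rests on single arrays. There were 505 calls without hsp33 deletion replicate 1 and 662 without hsp33 deletion replicate 2. A fit of the 6 arrays alone gave 866 calls, 424 higher and 442 lower. At an unadjusted p of 0.05, 1875 genes passed. The arrays of the 2 deletions did not overlap, in either direction, for 2025 genes, 34.5% of those tested. Lack of overlap, given below for single genes, is thus common.

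**Figure D1:**
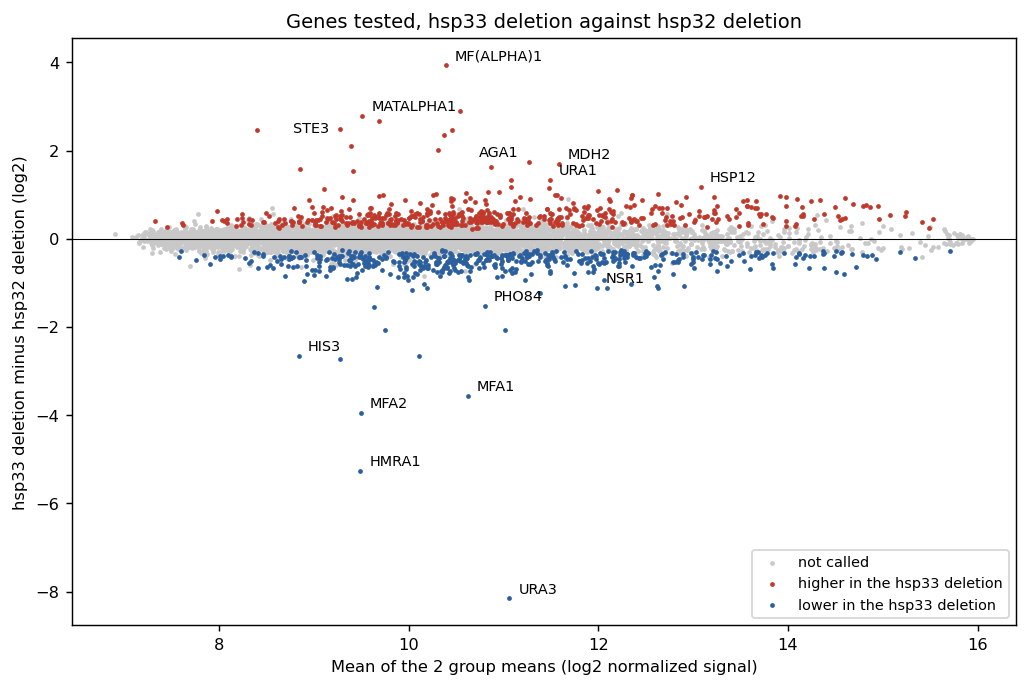
Difference between the group means (hsp33 deletion minus hsp32 deletion, log2, vertical axis) against the mean level of both groups (log2 normalized signal, horizontal axis), with 1 point for each of the 5863 genes tested. Red points were higher and blue points lower in the hsp33 deletion, grey points were not called, and URA3, HMRA1, MFA2 and MF(ALPHA)1 lie farthest from 0.

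Median brightness overlapped between the 2 deletions, while the background threshold of 1 array stood apart. Median spot brightness ran from 660 to 1088 on the hsp33 deletion arrays and from 726 to 1065.5 on the hsp32 deletion arrays. The arrays lay on 2 slides, inferred from the scan positions in the files: hsp33 deletion replicates 1 and 2 with hsp32 deletion replicates 2 and 3 on slide 2, and hsp33 deletion replicate 3 with hsp32 deletion replicate 1 on slide 1. Both slides held arrays of all 4 groups. With slide as a block 548 genes were higher and 525 lower, and within slide 2 alone 417 were higher and 462 lower. Slide 1 holds 1 array of each deletion and allows no test. A pair of bright negative control spots on hsp32 deletion replicate 2 raised its background threshold, and 80.3% of probes stood above it there, against 91.9% to 95.7% on the other 5 arrays.

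The genes that define an a cell were at low levels on the hsp33 deletion arrays. The a1 gene, probed as HMRA1, encodes a repressor subunit present in a cells and in diploids. Its level was 6.59, 7.13 and 6.85 on the hsp33 deletion arrays, against 12.22, 11.99 and 12.15 on the hsp32 deletion arrays. On all 3 hsp33 deletion arrays HMRA1 was not well above background, so that it was at least 29.4-fold lower there (limma adjusted p = 1.09e-11), where such a bound sets the brighter mean against the dimmest signal above background. The measured means of HMRA1 were 6.86 in the hsp33 deletion and 12.12 in the hsp32 deletion. In bulk RNA such as this, fewer cells with a transcript and less of it per cell cannot be told apart. The gene lies in identical copies at MAT and HMR in a cells, and the probe cannot tell them apart.

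All 7 a-cell genes tested were lower, with a median of -2.65, in a comparison where 9.14% of all genes tested were called lower and the median of all genes was 0.00. MFA2, which encodes the a-factor pheromone, was at 7.61, 7.37 and 7.60 on the hsp33 deletion arrays, against 11.38, 11.88 and 11.14 on the hsp32 deletion arrays. The 2 sets of arrays lay far apart, and MFA2 differed by -3.94 ± 0.16 (SE, log2; 15.4-fold). The size of this difference depends on the processing, and ran from -4.48 to -3.73 over the 23 alternatives. MFA1, the other a-factor gene, was at 8.88, 8.67 and 8.99 in the hsp33 deletion and at 12.27, 12.44 and 12.51 in the hsp32 deletion, a difference of -3.56 ± 0.10. The remaining members encode the protease that degrades alpha-factor (BAR1, -2.72 ± 0.12), the alpha-factor receptor (STE2, -2.65 ± 0.09), the a-factor exporter (STE6, -2.08 ± 0.12), the binding subunit of a-agglutinin (AGA2, -2.06 ± 0.14) and an a-specific regulator of pheromone signalling (ASG7, -1.54 ± 0.12).

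The genes of alpha cells ran the other way. All 5 tested were higher in the hsp33 deletion, with a median of 2.46, where 9.57% of all genes tested were called higher. MF(ALPHA)1, the main alpha-factor gene, was at 12.38, 12.44 and 12.26 on the hsp33 deletion arrays, against 8.37, 8.45 and 8.44 on the hsp32 deletion arrays. The groups did not overlap, and MF(ALPHA)1 differed by 3.94 ± 0.12 (15.3-fold). STE3, the a-factor receptor, stood at 10.53, 10.52 and 10.52 in the hsp33 deletion and at 8.05, 8.05 and 7.98 in the hsp32 deletion, a difference of 2.50 ± 0.11. MF(ALPHA)2, the minor alpha-factor gene, was well above background on 1 of the 3 hsp32 deletion arrays and differed by 2.46 ± 0.15, and AFB1, which encodes an a-factor barrier protein, by 2.09 ± 0.13. SAG1, the alpha-agglutinin gene, was at 11.19, 11.41 and 11.34 in the hsp33 deletion and at 9.23, 9.42 and 9.28 in the hsp32 deletion.

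The alpha1 activator itself was higher as well. The probes of its 2 near-identical copies, MATALPHA1 and HMLALPHA1, differed by 2.78 ± 0.18 and 2.67 ± 0.13. MATALPHA1 was at 10.93, 11.05 and 10.72 on the hsp33 deletion arrays, against 8.13, 7.91 and 8.33 on the hsp32 deletion arrays, with no overlap. Probes of the alpha2 repressor sequence, which is shared by several loci, moved less: MATALPHA2 by 0.60 ± 0.10 and HMRA2 by 0.47 ± 0.15, a call lost under 8 of 23 alternatives, while HMLALPHA2 at 0.42 ± 0.15 did not pass (limma adjusted p = 0.0625). Adjacent loci without a standard name, chosen after their values were seen, were YCR041W beside MAT (2.36 ± 0.13) and YCR097W-A beside HMR (2.48 ± 0.14).

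Read across the whole study, the hsp33 deletion arrays stood alone. All 12 of the a-cell and alpha-cell genes put the 3 hsp33 deletion arrays beyond each of the other 9 arrays, an arrangement that 1.16% of all genes tested showed above and 0.546% below. The summed linear signal of the 7 a-cell genes was 3189 to 3303 on the hsp33 deletion arrays, 18363 to 21092 on the hsp32 deletion arrays and 8118 to 8749 in wild type. The summed signal of the 5 alpha-cell genes was 10866 to 12183 on the hsp33 deletion arrays, 1667 to 1765 on the hsp32 deletion arrays and 1748 to 1806 in wild type. The pattern on the hsp33 deletion arrays is that of alpha cells and on the other arrays that of a cells. The labels name no mating type, so that mating type and deletion cannot be told apart in this comparison.  Of 8 haploid-specific genes 2 were higher and none lower, and of 10 meiotic genes tested none passed by limma, while 2 had an unadjusted p under 0.05.

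**Figure D2:**
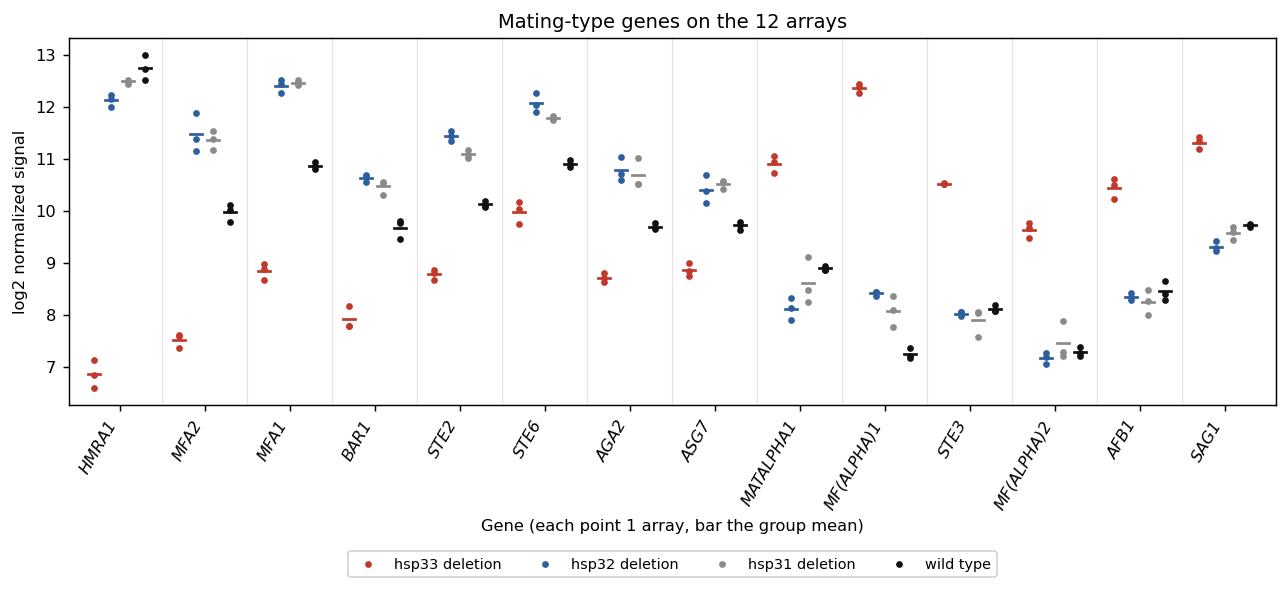
Level (log2 normalized signal, vertical axis) of a1 (HMRA1), the 7 a-cell genes, alpha1 (MATALPHA1) and the 5 alpha-cell genes, with 1 point per array and a bar at each group mean, for the hsp33, hsp32 and hsp31 deletions and wild type. The hsp33 deletion arrays lie below the other 9 for HMRA1 and the a-cell genes and above them for MATALPHA1 and the alpha-cell genes.

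Genes that pheromone switches on were also higher. Of 14 targets tested 10 were higher in the hsp33 deletion and none lower, with a median of 0.50. AGA1, the anchor subunit of a-agglutinin, was at 12.09, 12.02 and 12.32 on the hsp33 deletion arrays, against 10.30, 10.54 and 10.36 on the hsp32 deletion arrays, a difference of 1.75 ± 0.10. FIG2, an adhesin, was at 11.81, 11.63 and 11.59 in the hsp33 deletion and at 10.12, 9.91 and 10.13 in the hsp32 deletion (1.62 ± 0.09). No array of one deletion came near the other for either gene. The cell fusion genes PRM1 (1.58 ± 0.09), FUS1 (1.34 ± 0.09) and FUS2 (0.64 ± 0.08) and the nuclear fusion regulator KAR4 (1.06 ± 0.14) were higher too. FAR1, the cell cycle inhibitor that arrests cells before mating, differed by 0.58 ± 0.08.

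The signalling pathway itself moved less than its targets. Of 13 genes 3 were higher: SST2, which desensitises the pathway (0.53 ± 0.12), the transcription factor STE12 (0.51 ± 0.10) and the kinase gene FUS3 (0.42 ± 0.13). The G protein genes GPA1 (-0.04 ± 0.14) and STE4 (0.05 ± 0.08) did not pass. Within slide 2 alone the calls for SST2, STE12 and FUS3 were lost, and that for FUS3 under 10 of 23 alternatives in all. PRM6, a pheromone-regulated gene, stood above background on all 3 hsp33 deletion arrays and on none of the hsp32 deletion arrays, at 7.58, 7.50 and 7.50 in the hsp33 deletion and at 7.12, 7.08 and 7.19 in the hsp32 deletion. On a probe at background in the hsp32 deletion no size of difference is given for PRM6, and its call (limma adjusted p = 0.0425) was lost under 10 of 22 alternatives, each single-array omission among them. The only other gene above background on all arrays of the hsp33 deletion and none of the hsp32 deletion was YDR431W, which did not pass. YIL082W and YIL082W-A, loci of the Ty3 retrotransposon that were chosen after their values were seen, were higher by 2.90 ± 0.09 and 1.18 ± 0.12.

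Of 7 strain markers tested 1 was higher and 3 were lower in the hsp33 deletion (median -0.31), and URA3 differed most. URA3, which encodes the decarboxylase that completes uridine monophosphate synthesis and is a common deletion marker, was at 6.99, 7.05 and 6.92 on the hsp33 deletion arrays, against 15.04, 15.29 and 15.09 on the hsp32 deletion arrays. All 3 hsp33 deletion arrays were at background, as was wild type at 6.92, and URA3 was at least 238-fold lower in the hsp33 deletion (measured means 6.98 in the hsp33 deletion and 15.14 in the hsp32 deletion; limma adjusted p = 3.26e-14). HIS3, a histidine synthesis gene, was at 7.55, 7.52 and 7.47 in the hsp33 deletion and at 9.89, 10.39 and 10.25 in the hsp32 deletion, a difference of -2.66 ± 0.12. The HIS3 difference ran from -3.19 to -2.52 over the 23 alternatives. Wild type averaged 8.84 for HIS3, so that the hsp33 deletion lay below it and the hsp32 deletion above. LEU2, a leucine synthesis gene, was at 11.96, 12.10 and 12.39 in the hsp33 deletion and at 12.92, 12.90 and 13.25 in the hsp32 deletion, with no overlap, and was lower by -0.87 ± 0.12. CAN1, the arginine permease gene, was higher by 0.58 ± 0.19, a call lost under 8 of 22 alternatives. MET17 (-0.31 ± 0.12), TRP1 (0.32 ± 0.12) and ADE2 (-0.29 ± 0.11) each had an unadjusted p under 0.05 but did not pass. All 3 passed without hsp33 deletion replicate 3, where 2 markers were higher and 5 lower, and LYS2 was not above background on all arrays of any group.

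Among the other genes of pyrimidine synthesis, URA1 stood out. URA1, which encodes dihydroorotate dehydrogenase, was at 12.23, 11.81 and 12.40 on the hsp33 deletion arrays, against 10.76, 11.11 and 10.60 on the hsp32 deletion arrays. The groups did not overlap, and the difference was 1.32 ± 0.16 (2.50-fold), with wild type near the hsp32 deletion at 10.98. Of 16 genes of the pathway 2 were higher and 2 lower, 25% in all beside 18.7% of all genes. URA4 differed by 0.29 ± 0.09, URA7 by -0.62 ± 0.18 and URA5 by -0.27 ± 0.08, and each of these calls was lost without hsp33 deletion replicate 1 and also without hsp33 deletion replicate 2. PPR1, the activator of the pathway, did not pass (-0.07 ± 0.21).

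The probe for the gene labelled as deleted went against the label. HSP33 was at 9.41, 9.33 and 9.38 on the arrays labelled hsp33 deletion, against 8.94, 8.99 and 8.77 on the arrays labelled hsp32 deletion, and was thus higher in the hsp33 deletion by 0.47 ± 0.10. HSP32 was at 10.99, 11.22 and 10.85 on the arrays labelled hsp33 deletion and at 10.27, 10.10 and 10.14 on those labelled hsp32 deletion, a difference of 0.85 ± 0.12. Its lower level in the hsp32 deletion runs with that label, but SNO4, which neither label names, differed by 0.63 ± 0.10 in the same direction. All 3 near-identical genes stood above background on all 6 arrays, and sequences this alike can share signal on a probe, so their probes do not check the labels. The levels of all 3 were below wild type in both deletions: HSP33 by -1.74 ± 0.10 in the hsp33 deletion and -2.21 ± 0.10 in the hsp32 deletion, with the wild-type arrays shared by both values. HSP31, the distant relative, did not differ beyond its error (-0.08 ± 0.10), and on the hsp31 deletion arrays its probe was at background.

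Loci next to HSP33 and HSP32 moved in part. YOR392W, beside HSP33, was at 10.17, 10.16 and 10.20 on the hsp33 deletion arrays, against 8.69, 8.38 and 8.88 on the hsp32 deletion arrays. The hsp33 deletion arrays lay above all other 9 arrays, and the difference was 1.53 ± 0.12 (2.89-fold), with 1.54 on slide 2 and 1.52 on slide 1. Of 13 neighbouring loci 12 were tested, and 5 of these were higher and none lower. The near-identical pairs ERR1 and ERR2, enolase-related genes, and PAU21 and PAU22, seripauperin genes, were higher by 0.94 ± 0.31, 1.13 ± 0.27, 0.45 ± 0.08 and 0.60 ± 0.08, and in each pair 1 gene lies beside HSP33 and 1 beside HSP32. The ERR1 call (limma adjusted p = 0.0474) was lost under 12 of 23 alternatives, and the count of higher neighbours was 3 without hsp33 deletion replicate 1 or without hsp33 deletion replicate 2, the ERR2 call lost in both.

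**Figure D3:**
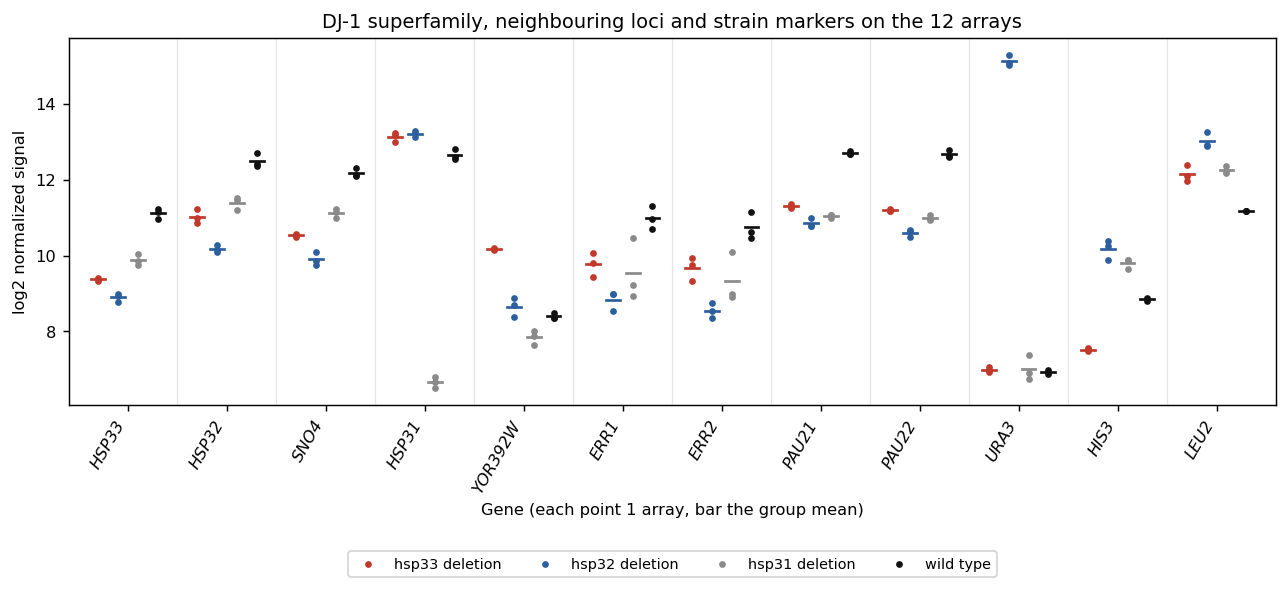
Level (log2 normalized signal, vertical axis) of the DJ-1 superfamily genes, neighbouring loci and the markers URA3, HIS3 and LEU2, with 1 point per array and a bar at each group mean, for the hsp33, hsp32 and hsp31 deletions and wild type. HSP33 is not lowest on the hsp33 deletion arrays, YOR392W is highest there, and URA3 averages 15.14 in the hsp32 deletion, against 6.98 in the hsp33 deletion and 6.92 in wild type.

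Stress protection was the largest group that was higher in the hsp33 deletion. Of 57 genes of the general stress response, 52 targets of Msn2 and Msn4 and 5 activators, 37 were higher and 3 lower. Their median was 0.47 beside 0.00 for all genes. Without hsp33 deletion replicate 1 there were 27 higher and 1 lower. The higher count was 29 without hsp33 deletion replicate 2 and 31 without hsp32 deletion replicate 3. It was 35 without hsp32 deletion replicate 2, and 38 without hsp32 deletion replicate 1 or without hsp33 deletion replicate 3. HSP12, a membrane-protecting small heat shock protein gene, was at 13.90, 13.70 and 13.39 on the hsp33 deletion arrays, against 12.78, 12.48 and 12.23 on the hsp32 deletion arrays. Every hsp33 deletion array was above every hsp32 deletion array, and the difference was 1.17 ± 0.19 (2.24-fold). CTT1, cytosolic catalase, was at 14.63, 14.40 and 14.31 in the hsp33 deletion and at 13.79, 13.54 and 13.20 in the hsp32 deletion, a difference of 0.94 ± 0.13. RTN2, a reticulon gene, differed by 0.96 ± 0.19 and PHM7 by 0.92 ± 0.19. The activator genes MSN2 (0.16 ± 0.09) and MSN4 (-0.23 ± 0.10) did not pass, whereas GIS1, an activator of stationary phase genes, was higher by 0.58 ± 0.11.

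HSP12 and CTT1 were below wild type in both deletions, and farther below in the hsp32 deletion. HSP12 stood at -2.01 ± 0.19 from wild type in the hsp33 deletion and at -3.17 ± 0.19 in the hsp32 deletion. CTT1 stood at -1.41 ± 0.13 in the hsp33 deletion and at -2.35 ± 0.13 in the hsp32 deletion. The wild-type arrays are shared by each such pair of values, and the comparison between the deletions is the test. The differences were uneven between slides, with a list median of 0.60 on slide 2 and 0.28 between the single arrays of slide 1. HSP12 differed by 1.45 on slide 2 and by 0.60 on slide 1, RTN2 by 1.34 and 0.18. The mating-type and marker differences above lie on the same 6 arrays, and their part in these results was not tested.

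Storage carbohydrate genes showed the highest median of these metabolic groups. Of 22 genes of trehalose and glycogen metabolism 15 were higher and none lower, with a median of 0.57. GSY1, a glycogen synthase gene, was at 14.53, 14.35 and 14.32 on the hsp33 deletion arrays, against 13.49, 13.58 and 13.21 on the hsp32 deletion arrays, a difference of 0.97 ± 0.10. At 14.43 on average, wild type matched the hsp33 deletion for GSY1 within error (-0.03 ± 0.10). GPH1, glycogen phosphorylase, differed by 0.86 ± 0.15, so that genes for making and for breaking down glycogen were both higher. On the trehalose side, the synthase complex genes TSL1 (0.71 ± 0.18) and TPS1 (0.56 ± 0.12) and the acid trehalase gene ATH1 (0.56 ± 0.11) were higher, the TSL1 call being lost without hsp33 deletion replicate 1. Stationary phase genes and hydrophilins had 12 of 25 higher and none lower, with a median of 0.26: RGI2, a respiratory growth gene, differed by 1.08 ± 0.16, FMP16 by 0.95 ± 0.14 and HBT1 by 0.98 ± 0.29, the last a call lost under 7 of 23 alternatives. Without hsp33 deletion replicate 1 the count was 7, and without hsp32 deletion replicate 3 it was 8 of 25.

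Genes for living on ethanol and acetate followed. Of 35 genes of the glyoxylate cycle, gluconeogenesis and 2-carbon use, 17 were higher and 2 lower, with a median of 0.38. MDH2, the cytosolic malate dehydrogenase gene of the glyoxylate cycle, was at 12.65, 12.50 and 12.16 on the hsp33 deletion arrays, against 10.92, 10.85 and 10.42 on the hsp32 deletion arrays. It was the largest difference outside the mating genes among the genes with a standard name that were higher, at 1.70 ± 0.14 (3.26-fold). FBP1, fructose-1,6-bisphosphatase of gluconeogenesis, was at 11.51, 11.41 and 11.16 in the hsp33 deletion and at 10.56, 10.21 and 10.16 in the hsp32 deletion (1.05 ± 0.14). In both genes the hsp33 deletion arrays all lay above the hsp32 deletion arrays, where 34.5% of all genes tested showed no overlap in either direction. The acetate transporter gene ADY2 (1.14 ± 0.19), the ethanol-oxidising dehydrogenase gene ADH2 (0.98 ± 0.14), the isocitrate lyase gene ICL1 (0.75 ± 0.16) and the isocitrate dehydrogenase gene IDP2 (0.75 ± 0.15) were higher.

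The activators of that programme were higher by less. CAT8 differed by 0.55 ± 0.15, ADR1 by 0.55 ± 0.13 and SIP4 by 0.35 ± 0.11, and all 3 calls were lost without hsp33 deletion replicate 1. Without hsp32 deletion replicate 3 the CAT8 and SIP4 calls were lost, as was SIP4 without hsp33 deletion replicate 2 and without hsp32 deletion replicate 2. The members that were lower were the malic enzyme gene MAE1 (-0.57 ± 0.12) and the mitochondrial aldehyde dehydrogenase gene ALD5 (-0.65 ± 0.09). MDH2 stood at -1.03 ± 0.14 from wild type in the hsp33 deletion and at -2.74 ± 0.14 in the hsp32 deletion. The list median was 0.58 on slide 2 and 0.11 on slide 1, and without hsp33 deletion replicate 1 the count of higher members was 10.

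Mitochondrial and peroxisomal genes changed in smaller shares. The tricarboxylic acid cycle had 7 of 19 higher and none lower (median 0.29), led by MDH1, mitochondrial malate dehydrogenase, at 0.53 ± 0.10. That count was 2 without hsp33 deletion replicate 1, and 3 without hsp33 deletion replicate 2 or without hsp32 deletion replicate 3. The respiratory chain and ATP synthase had 13 of 50 higher and 2 lower (median 0.20), against 7 higher without hsp33 deletion replicate 1 and 8 without hsp33 deletion replicate 2. NDE2, an external NADH dehydrogenase gene, differed by 0.92 ± 0.14 and COX5B, a cytochrome oxidase subunit gene of low-oxygen growth, by 0.56 ± 0.09, while CYC1, cytochrome c, was lower (-0.32 ± 0.09), as was HAP4, the gene of the respiratory activator's activating subunit (-0.28 ± 0.08). The CYC1 call was lost under 5 of 23 alternatives and the HAP4 call under 7. Mitochondrial ribosomal protein genes had 2 higher and 1 lower of 73, below the share of all genes. Peroxisome and fatty acid oxidation genes had 12 of 45 higher and 2 lower, with 3-ketoacyl-CoA thiolase POT1 at 0.88 ± 0.13 and peroxisomal catalase CTA1 at 0.81 ± 0.13. POT1 was at 9.97, 9.88 and 9.72 on the hsp33 deletion arrays, against 9.06, 9.15 and 8.70 on the hsp32 deletion arrays, and both deletions lay far under wild type at 13.00.

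Many transcripts of vacuolar hydrolases and of their inhibitors were higher. Of proteasome genes 7.32% were called, beside 18.7% of all genes tested. Protein breakdown itself was not measured. Vacuolar hydrolases and their inhibitors had 11 of 19 higher and 1 lower, with a median of 0.46. All 3 inhibitor genes were higher, PAI3, the inhibitor of proteinase A, by 0.71 ± 0.11, and among hydrolases the aminopeptidase gene APE3 by 0.74 ± 0.14. Autophagy had 7 of 39 higher and none lower (median 0.16), 4 of them among the 8 cargo receptors, where ATG34 was highest at 0.78 ± 0.12. That is 17.9% of the autophagy list, beside 9.57% of all genes called higher and 18.7% called in either direction. The count of 7 was 5 without hsp33 deletion replicate 1, without hsp33 deletion replicate 2 or without hsp32 deletion replicate 3. The proteasome had 3 of 41 higher and none lower (median 0.07), and all 3 calls were lost without hsp33 deletion replicate 1 or without hsp32 deletion replicate 3, and 1 gene was called without hsp33 deletion replicate 2 or 3.

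Glycolysis and fermentation had 1 of 27 higher and 1 lower (median 0.02), 7.41% in all beside 18.7% of all genes. There were 3 higher without hsp32 deletion replicate 1, 2 higher and 2 lower without hsp33 deletion replicate 3 or without hsp32 deletion replicate 2, and 1 of each in the other 3 such fits. The glucokinase paralogue gene EMI2 was higher by 0.69 ± 0.12 and PFK27, a regulatory phosphofructokinase gene, lower by -0.59 ± 0.13, while TDH1 did not pass (0.26 ± 0.11). In the pentose phosphate pathway 3 of 12 were higher and 5 lower. TKL2, the minor transketolase gene, was at 11.29, 11.20 and 10.87 on the hsp33 deletion arrays, against 10.38, 10.42 and 10.05 on the hsp32 deletion arrays (0.84 ± 0.12). GND1, the main phosphogluconate dehydrogenase gene, was at 13.89, 14.20 and 14.31 in the hsp33 deletion and at 14.94, 14.83 and 14.89 in the hsp32 deletion (-0.75 ± 0.11). The count of 5 lower was 3 without hsp33 deletion replicate 1 or without hsp32 deletion replicate 1, and 2 without hsp33 deletion replicate 2. The pathway thus held both directions, with its stress-induced members TKL2 and SOL4 (0.82 ± 0.16) higher and GND1 lower.

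Glycerol metabolism split by role in part. Genes for taking up and using glycerol had 4 of 6 higher, among them the symporter gene STL1 (0.70 ± 0.14) and the glycerol-3-phosphate dehydrogenase gene GUT2 (0.72 ± 0.19). All genes of glycerol metabolism held 5 higher, which was 3 without hsp33 deletion replicate 1 or without hsp32 deletion replicate 3, the GUT2 call lost in both. Genes of glycerol synthesis and export held both directions, with 1 of 5 higher and 2 lower. The lower ones were the phosphatase genes that make glycerol. GPP1 was at 11.48, 11.80 and 12.21 on the hsp33 deletion arrays, against 12.75, 12.79 and 13.03 on the hsp32 deletion arrays, a difference of -1.03 ± 0.15, and GPP2 differed by -0.74 ± 0.12. Among hexose transporter genes HXT5, made in starved cells, was higher by 0.73 ± 0.15.

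Ribosome production was the largest group that was lower in the hsp33 deletion. Of 133 ribosome biogenesis genes 96 were lower and none higher, with a median of -0.53. NSR1, nucleolin, was at 11.02, 11.31 and 11.96 on the hsp33 deletion arrays, against 12.18, 12.57 and 12.88 on the hsp32 deletion arrays. All 3 hsp33 deletion arrays lay below the hsp32 deletion arrays, replicate 3 closest to them, and the difference was -1.12 ± 0.21 (2.17-fold). SSF1, a large subunit assembly factor gene, was at 9.36, 9.59 and 9.97 in the hsp33 deletion and at 10.63, 10.58 and 11.05 in the hsp32 deletion (-1.11 ± 0.15). The small subunit processome genes UTP9 (-1.03 ± 0.19) and BFR2 (-0.96 ± 0.13) and the rRNA methyltransferase gene NOP1 (-0.75 ± 0.12) were lower. Counts by role were 42 of 56 for the small subunit processome, 6 of 10 for box C/D and H/ACA factors and 48 of 67 for large subunit assembly and other factors.

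The size of the ribosome biogenesis result differed between arrays. Its median was -0.67 on slide 2 and -0.24 on slide 1, and NSR1 differed by -1.56 on slide 2 and by -0.22 on slide 1. Without hsp33 deletion replicate 1 there were 48 members lower and without hsp33 deletion replicate 2 there were 64, with none higher in either case. Against wild type, SSF1 stood at 0.93 ± 0.15 from wild type in the hsp33 deletion and at 2.04 ± 0.15 in the hsp32 deletion, and UTP9 at 0.06 ± 0.19 in the hsp33 deletion and at 1.09 ± 0.19 in the hsp32 deletion.

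Other parts of the translation machinery were lower by less. Cytosolic ribosomal proteins and their activators had 44 of 143 lower and none higher (median -0.27), led by the minor paralogue RPL22B (-0.71 ± 0.12) and RPS27A (-0.53 ± 0.12). That count depended on the arrays used, at 9 without hsp33 deletion replicate 1, 14 without hsp33 deletion replicate 2, 16 without hsp32 deletion replicate 3 and 74 without hsp33 deletion replicate 3. It also depended on the processing, at 16 with arrays scaled to the median, 23 in a fit of the 6 arrays alone and 81 with array weights. RNA polymerases I and III had 9 of 27 lower and none higher (median -0.35), among them the polymerase I subunit genes RPA49 (-0.66 ± 0.14) and RPA135 (-0.60 ± 0.11), with 5 lower without hsp33 deletion replicate 1. Translation factors and tRNA synthetases had 24 of 59 lower and 1 higher (median -0.28), 12 of them among the 20 synthetases, where WRS1, for tryptophan, was lowest at -0.53 ± 0.11. The count of 24 was 6 without hsp33 deletion replicate 1, 9 without hsp33 deletion replicate 2, 14 with arrays scaled to the median and 13 in a fit of the 6 arrays alone. The 1 higher gene was HYP2, eIF5A of aerobic cells (0.79 ± 0.17), whose near-identical partner of low-oxygen growth, ANB1, was lower (-0.52 ± 0.13). HYP2 was at 15.06, 15.11 and 15.08 on the hsp33 deletion arrays, against 14.60, 13.72 and 14.56 on the hsp32 deletion arrays, with hsp32 deletion replicate 2 set apart from its group. Neither HYP2 nor ANB1 passed within slide 2 alone, and ANB1 did not without hsp33 deletion replicate 1. HEM13, a haem synthesis gene induced at low oxygen, was lower by -0.73 ± 0.16.

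**Figure D4:**
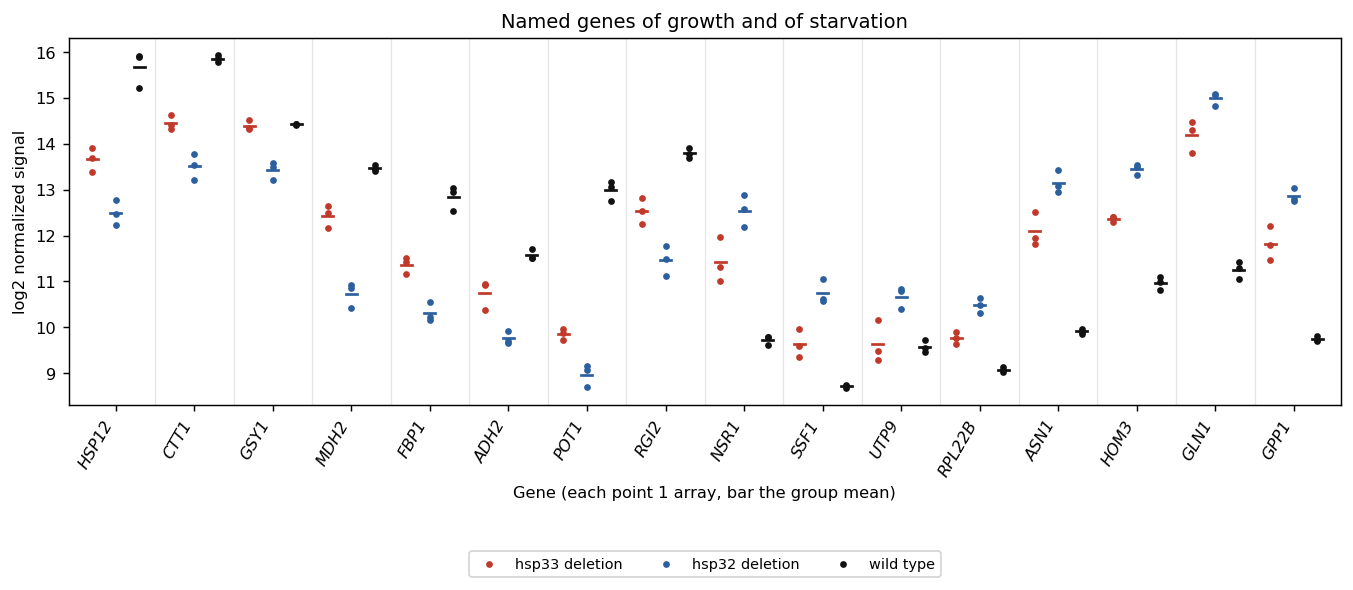
Level (log2 normalized signal, vertical axis) of 8 genes that were higher and 8 that were lower in the hsp33 deletion, with 1 point per array and a bar at each group mean, for the hsp33 deletion, the hsp32 deletion and wild type. The hsp33 deletion arrays lie above the hsp32 deletion arrays from HSP12 to RGI2 and below them from NSR1 to GPP1.

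Amino acid synthesis was lower across its branches. Of 71 genes tested, those governed by the activator Gcn4 and GCN4 itself, 40 were lower and none higher (median -0.32), HIS3 and LEU2 among them. The other marked members were the aspartate kinase gene HOM3, the asparagine synthetase gene ASN1 and the glutamine synthetase gene GLN1. HOM3 was at 12.29, 12.40 and 12.41 on the hsp33 deletion arrays, against 13.31, 13.50 and 13.53 on the hsp32 deletion arrays, a difference of -1.08 ± 0.09. ASN1 was at 11.82, 11.94 and 12.50 in the hsp33 deletion and at 13.08, 13.42 and 12.96 in the hsp32 deletion (-1.06 ± 0.16). Neither gene showed overlap between the deletions, and GLN1 differed by -0.80 ± 0.15. Branched chain genes had 7 of 11 lower, with ILV5 at -0.73 ± 0.10, and histidine genes 5 of 7, with HIS1 at -0.64 ± 0.09. GCN4 itself did not pass (-0.22 ± 0.14), and its transcript level does not measure its protein, which is set by translation. The count was 19 without hsp33 deletion replicate 1 and 26 without hsp33 deletion replicate 2.

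Sulfur assimilation and methionine synthesis had 13 of 32 lower and 1 higher (median -0.28), with MET16, which reduces activated sulfate, at -0.63 ± 0.09 and STR3, a cystathionine lyase gene, at -0.75 ± 0.14, and 8 lower without hsp33 deletion replicate 2. Ergosterol synthesis had 7 of 34 lower and none higher (median -0.08). That is 20.6% of the list, beside 9.14% of all genes called lower and 18.7% called in either direction. ERG11, the lanosterol demethylase gene, was at 12.08, 12.32 and 12.78 on the hsp33 deletion arrays, against 13.04, 13.35 and 13.17 on the hsp32 deletion arrays (-0.79 ± 0.14), and UPC2, an activator of sterol genes, was lower by -0.51 ± 0.10. Most enzymes of the ergosterol pathway did not pass, and its share called in either direction was near that of all genes.

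Heat shock proteins and chaperones ran against the general stress genes. Of 55 genes 14 were lower and 2 higher (median -0.19). The lower members included the ribosome-associated chaperone genes ZUO1 (-0.57 ± 0.11) and SSZ1 (-0.54 ± 0.14), the Hsp90 co-chaperone gene CNS1 (-0.80 ± 0.17) and the Hsp70 gene SSA2 (-0.55 ± 0.17). HSP42, a small heat shock protein gene, was higher by 0.45 ± 0.12, whereas HSP26 (-0.39 ± 0.12) and HSP30 (-0.45 ± 0.13) were lower. HSF1, the activator of heat shock genes, did not pass (-0.06 ± 0.08). The count of 14 lower was 2 without hsp33 deletion replicate 1, 6 without hsp33 deletion replicate 2, 9 without hsp32 deletion replicate 1 and 8 without hsp32 deletion replicate 2. It was 7 with arrays scaled to the median, 9 within slide 2 and 23 with array weights. The calls for HSP26 and HSP30 were each lost under 8 of 23 alternatives, SSA2 under 6, SSZ1 under 3 and HSP42 under 2, single arrays left out among them.

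Defence against oxidants had 13 of 45 higher and 4 lower (median 0.17). Besides the catalases, ECM4, a glutathione transferase gene, was higher by 0.92 ± 0.15. Without hsp33 deletion replicate 1 the count of higher genes was 8, and without hsp33 deletion replicate 2 the count of lower ones was 2. Methylglyoxal metabolism, to which the Hsp31 protein contributes, had 2 of 10 higher and none lower, with ARA1, an arabinose dehydrogenase gene, at 0.48 ± 0.09. That is 20% of the list, beside 9.57% of all genes called higher and 18.7% called in either direction. The count was 1 without hsp33 deletion replicate 1, without hsp33 deletion replicate 2 or without hsp32 deletion replicate 3. Nutrient signalling had 4 of 45 higher and 1 lower, 11.1% in all and thus below the 18.7% of all genes. There were 2 higher without hsp33 deletion replicate 1 or without hsp33 deletion replicate 2. Within that list none of 18 genes of TOR and Sch9 passed by limma, 2 of them with an unadjusted p under 0.05.

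**Figure D5:**
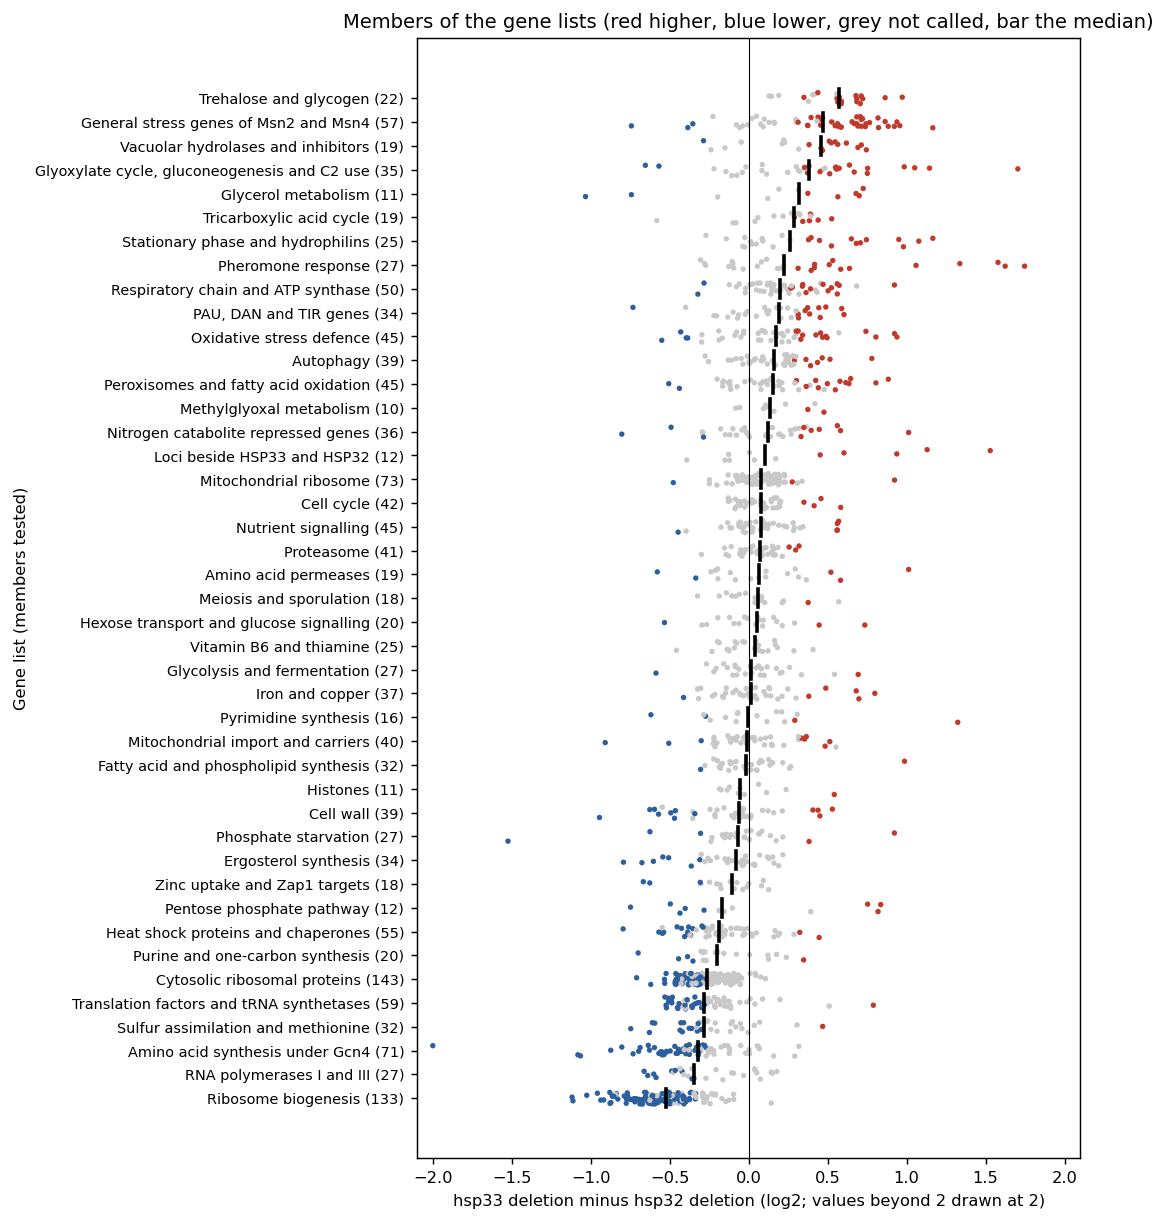
Difference between the deletions (hsp33 deletion minus hsp32 deletion, log2, horizontal axis; values beyond 2 are drawn at 2) for each tested member of the gene lists with at least 10 members tested, ordered by list median from trehalose and glycogen at the top to ribosome biogenesis at the bottom. Red members were higher and blue members lower in the hsp33 deletion, grey members were not called, and black bars are the list medians, from 0.57 to -0.53.

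Nutrient uptake differed gene by gene. PHO84, the high-affinity phosphate transporter gene, was at 9.81, 9.72 and 10.59 on the hsp33 deletion arrays, against 11.45, 11.76 and 11.48 on the hsp32 deletion arrays. The hsp33 deletion lay near wild type, at 9.82, and the hsp32 deletion above both, so that PHO84 differed by -1.52 ± 0.18 (2.88-fold). It was not followed by its group: of 27 phosphate starvation genes 2 were higher and 3 lower (median -0.07), 18.5% in all beside 18.7% of all genes. ZRT1, the zinc transporter gene, was lower by -0.67 ± 0.10, in a list of 18 with 3 lower and none higher, 16.7% in all. PUT4, the proline permease gene, was higher by 1.01 ± 0.23, a call lost without hsp33 deletion replicate 1, and FIT2, a cell wall mannoprotein gene that retains iron, by 0.80 ± 0.09.

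Other large differences stood outside the lists or in mixed ones. MCH5, the riboflavin transporter gene, was at 10.63, 10.70 and 10.98 on the hsp33 deletion arrays, against 11.85, 12.18 and 11.99 on the hsp32 deletion arrays (-1.24 ± 0.12). IRC7, a beta-lyase gene, was lower by -1.17 ± 0.15, EEB1, an ester synthesis gene, by -1.13 ± 0.14, YPS3, a cell wall protease gene, by -0.94 ± 0.10, and OAC1, the mitochondrial oxaloacetate carrier gene, by -0.91 ± 0.16. The arrays of the 2 deletions did not overlap for any of these 5 genes, as for 34.5% of all genes tested. Lack of overlap was also a condition for naming the largest differences, so it adds nothing to them.

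No chromosome arm was shifted as a whole. Medians over the 32 arms ran from -0.04 to 0.10. Among 320 genes that were the 10 outermost tested on each arm, 50 were higher, 15.6% beside 9.57% of all genes, and 19 were lower, 5.94% beside 9.14%. The PAU, DAN and TIR genes, many of them near chromosome ends and alike in sequence, had 10 of 34 higher and 1 lower (median 0.19), with 5 higher without hsp33 deletion replicate 2. Of 25 genes of vitamin B6 and thiamine synthesis none passed by limma, and 4 had an unadjusted p under 0.05.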

How the data were processed

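Total RNA of Saccharomyces cerevisiae (12 arrays, 3 per group) was labelled with Cy3 and hybridised 1 sample per array, per the labels' protocols. The deposited scanner tables hold each spot's foreground and background intensity, with no normalization stated in the sources used here, and a percent of saturated pixels, per the file headers. The deposited series values equalled the scanner's median foreground intensity at all 188832 spots, so they are linear, not centred and not normalized. Their array medians ran from 602.5 to 1179. The authors' comparison tables concern wild type and were not used.

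Mean foreground was corrected with normexp (offset 50), quantile normalized over non-control spots, put on a log2 scale and averaged over the 2 spots of a probe. A probe was above background at the median of 77 negative controls plus 2 SD. Symbols came from the files' locus names through the RefSeq gene table (5753 of 6252 loci matched). Group means over all 12 arrays were fitted with limma 3.58.1 in R 4.3.3, which was tested on simulated data, with Benjamini-Hochberg adjustment over the 5863 genes tested. The number of arrays limits the precision. A call means an adjusted p under 0.05, and ± is the fit's SE. No list was tested as a set.

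Named genes were the DJ-1 genes, their neighbours and strain markers, the 15 largest non-overlapping differences in each direction, up to 4 leading members of each list role, regulators, and genes above background in 1 deletion alone. The text gives a subset of these. The comparison, members and lists were chosen with earlier results of these data known. Same-numbered replicates of the 2 deletions had deviations that correlated at 0.24, -0.21 and -0.01, and the labels pair nothing, so no pairing was assumed. The 22 other settings tried changed scaling, background, filter, saturated genes, arrays, slide or replicate block, weights and moderation. A threshold by median absolute deviation was added after seeing the data, because of bright control spots on 1 array.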

Additional observations from a re-analysis of the deposited data

How the results depend on the processing

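No gene called higher or lower changed sign under any of the 23 alternatives, and of 166 named genes 124 kept their side of the threshold in all of them, 37 lost their call in at least 1 and 5 gained one. Array weights gave 826 higher and 870 lower, beside 561 and 536. Leaving out single arrays gave 267 to 639 genes higher and 238 to 671 lower, both lowest without hsp33 deletion replicate 1 and both highest without hsp33 deletion replicate 3. The cause was not tested. With replicate number as a block 544 genes were higher and 544 lower. Deviations from the group means were also correlated between arrays of different groups. There, 8 of the 12 arrays correlated best with an array of their own number. Scaling to the 75th percentile gave 449 higher and 576 lower, and scaling to the median 560 and 408. The median of 37 of 48 gene lists kept its sign throughout, and the lists that did not have medians within 0.13 of 0. Other counts of list members moved by over 1.5 times outside the single-array omissions. Within slide 2 there were 8 pheromone response genes higher beside 13, 4 autophagy genes beside 7, 5 PAU, DAN and TIR genes beside 10, 3 iron and copper genes beside 5 and 2 cell wall genes beside 4. There were also 3 pentose phosphate genes lower there beside 5, as with arrays scaled to the median. With array weights 22 respiratory chain genes beside 13 and 16 PAU, DAN and TIR genes beside 10 were higher, and 8 purine and one-carbon genes beside 4 were lower. The authors' series values gave 11 ergosterol genes lower beside 7 and 14 RNA polymerase I and III genes lower beside 9. The 3 proteasome calls were lost within slide 2 and in a fit of the 6 arrays alone. Signal over background limits HMRA1 and URA3 in the hsp33 deletion to bounds, and levels near 7 hold no order. With 3 arrays a group, whether the separate deletions came from 1 clone each or differ in parent strain cannot be told apart from the deletions.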

Other observations

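Of 39 cell wall genes 8 were lower and 4 higher in the hsp33 deletion (median -0.06), 30.8% in all beside 18.7% of all genes. The lower members held SLT2, the MAP kinase gene of the cell wall integrity pathway (-0.60 ± 0.14), and RLM1, the transcription factor gene that acts under it. RLM1 was at 11.23, 11.29 and 11.37 on the hsp33 deletion arrays, against 11.71, 11.75 and 11.84 on the hsp32 deletion arrays, a difference of -0.47 ± 0.08 with no overlap. The wall genes PST1 (-0.63 ± 0.10), CRH1 (-0.49 ± 0.08), EXG1 (-0.57 ± 0.11) and GAS1 (-0.46 ± 0.11) were lower, whereas CWP1, a wall mannoprotein gene, was higher (0.53 ± 0.10). The SLT2 and GAS1 calls were lost without hsp33 deletion replicate 1, where 5 members were lower and 2 higher. There was 1 higher without hsp33 deletion replicate 2, and there were 2 without hsp32 deletion replicate 1 or 3. Of 37 iron and copper genes 5 were higher and 1 lower (median 0.02), 16.2% in all and thus near the share of all genes, with 2 higher without hsp33 deletion replicate 1, without hsp33 deletion replicate 2 or without hsp32 deletion replicate 3. The 3 FIT genes, for mannoproteins that retain iron in the wall, were all higher: besides FIT2, FIT1 by 0.70 ± 0.11 and FIT3 by 0.49 ± 0.12, the FIT3 call being lost in those same 3 fits.

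Of 36 genes, those repressed by good nitrogen sources and 7 regulators, 7 were higher and 3 lower (median 0.12), 27.8% in all beside 18.7% of all genes. The ammonium permease genes differed in sign, with MEP1 at 0.40 ± 0.09 and MEP2 at -0.49 ± 0.11. The higher genes numbered 2 without hsp33 deletion replicate 1, while without hsp33 deletion replicate 2 there were 4 and without hsp32 deletion replicate 3 there were 3. Of 19 amino acid permease genes 3 were higher and 2 lower (median 0.06), 26.3% in all, with BAP3, for branched chain amino acids, at -0.58 ± 0.11. The higher count was 0 without hsp33 deletion replicate 1 and 5 without hsp33 deletion replicate 3. Purine and one-carbon synthesis had 4 of 20 lower and 1 higher (median -0.20), 25% in all, led by ADE4, the gene of the first purine enzyme (-0.70 ± 0.12). There were 2 lower without hsp33 deletion replicate 1 or 2 and 9 without hsp33 deletion replicate 3. Fatty acid and phospholipid synthesis had 1 of 32 higher and 1 lower, 6.25% in all. The higher gene, CHO1, phosphatidylserine synthase (0.99 ± 0.29), was at 12.94, 12.87 and 12.75 on the hsp33 deletion arrays, against 12.47, 10.84 and 12.28 on the hsp32 deletion arrays, with hsp32 deletion replicate 2 apart from its group. The CHO1 call was lost without hsp33 deletion replicate 1 or 2.

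Cell cycle genes had 4 of 42 higher and none lower (median 0.08), 9.52% beside 9.57% of all genes called higher, with SWI4, a transcription factor gene of G1, at 0.46 ± 0.09 beside FAR1. There were 2 without hsp33 deletion replicate 1 or 2, or without hsp32 deletion replicate 1. Histones had 1 of 11 higher, 9.09%, the linker histone gene HHO1 (0.54 ± 0.14). The HHO1 call was lost without hsp33 deletion replicate 1 or 2 or without hsp32 deletion replicate 3. Hexose transport and glucose signalling had 2 of 20 higher and 1 lower, 15% in all beside 18.7% of all genes. The lower gene was STD1, a regulator of hexose transporter genes, at -0.53 ± 0.09. Mitochondrial import and carriers had 5 of 40 higher and 3 lower, 20% in all and thus near the 18.7% of all genes. This list had 0 higher and 1 lower without hsp33 deletion replicate 1. It had 2 higher and 1 lower without hsp33 deletion replicate 2 or without hsp32 deletion replicate 2, and 3 higher without hsp32 deletion replicate 3. The mitochondrially encoded genes had 1 of 8 higher, 12.5%, and meiosis and sporulation 1 of 18, 5.56%, beside 9.57% of all genes called higher.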
